A study of Mus musculus with 6 samples.

Results

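CpG-poor megabase domains were taken as the 238 stretches of 1 Mb with the fewest CpG sites among 2378 such stretches (tiles) of the mouse autosomes. Tiles were laid from the first base past 4 Mb of each autosome in genome build mm9. Only whole tiles were kept, and 9 of 2387 with fewer than 500 CpG sites were left out. The choice used the positions of CpG sites and no methylation value. The 238 tiles held between 647 and 4819 CpG sites each (median 4508), and they were compared with the 475 tiles of the middle deciles (the 5th and 6th of 10 ranked groups), which held 6963 to 8817. At the threshold, the last tiles inside lay on chromosome 1 from 106000001 and on chromosome 8 from 22000001, with 4819 sites each. The first tiles outside, on chromosome 16 from 47000001 and chromosome 11 from 13000001, held 4819 and 4820 sites, the tie at 4819 being broken by genome order.

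Mammalian DNA loses CpGs by deamination of methylated cytosine, and the long stretches poorest in CpGs are AT-rich, gene-poor and rich in LINE-1 repeats. In many cell types such stretches replicate late and lie at the nuclear lamina, and in cultured and tumour cells they often form partially methylated domains. DNMT3A and DNMT3B set methylation de novo, DNMT1 copies it at replication, and SETD2 writes the H3K36me3 mark along transcribed genes, which the PWWP domain of DNMT3B binds.

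Cells of 3 lines of mouse embryonic stem cells were measured by whole-genome bisulfite sequencing, which reads an unconverted cytosine at a CpG as methylated. All were null for DNMT1, DNMT3A and DNMT3B, so that no maintenance enzyme was present in any group. The first expressed DNMT3B1, a DNMT3B isoform, and also lacked SETD2. The second expressed DNMT3B1 with SETD2 present, and the third expressed DNMT3A2, the short isoform of DNMT3A. Cells had been grown on feeder cells or on gelatine, and the labels do not say how the enzymes were expressed or how many clones were used. For each line 2 sequencing runs were listed but 1 set of values was used, so there was no replicate, no p-value between lines could be given, and every interval describes these libraries only. Enzyme levels were not analysed here.

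The domains were unevenly spread. Chromosome 1 held 32 of the 238 tiles (16.7% of its ranked tiles) and chromosome 4 held 23 (15.2%), whereas chromosome 19 held 1 (1.75%). Many tiles were neighbours: 162 of them formed 60 runs of 2 or more adjacent tiles, and 76 stood alone. The longest runs had 6 tiles, on chromosome 1 from 101000001 to 107000000 and on chromosome 2 from 95000001 to 101000000. Together the 238 tiles contained 5.35% of the CpG sites of all ranked tiles.

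The genes that could be placed in the domains were few and long. RefSeq promoter windows (250 bases before to 50 after a gene's start, build GRCm38.p6) were placed on the mm9 sites by the exact spacing of their CpGs, for windows with at least 8 CpGs. Of 15382 such windows 13776 (89.6%) matched 1 place on their own chromosome, and 15 windows matched another chromosome tried as a check. A placed promoter was found in 44 of 231 CpG-poor tiles searched, against 411 of 453 middle tiles, which is 0.268 against 4.08 placed genes a tile. The domains held 62 placed genes, of which 41 code for protein. A gene length of 100 kb or more was found for 24 of these 41 (58.5%), against 317 of 1465 (21.6%) in the middle tiles, and the median length was 163 kb against 32.5 kb. Promoters with few CpGs were missed by this placement in both sets. Some placed genes, such as Pop4 and Rasgrf2, lay in tiles with a stretch of 50 kb or more without CpG sites.

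Among the placed genes were the cadherins Cdh7, Cdh9 and Cdh20, which hold cells together, and the contactin Cntn5 and the contactin-associated Cntnap5b, cell-surface adhesion proteins of neurons. Others were the glutamate receptors Grik2 and Grm7, the potassium channel partner Dpp10, the guidance molecules Sema6d, Plxna2 and Epha5, and Slitrk1. These names were picked from the placed genes after the values were seen, and Cdh7, Dpp10 and Slitrk1 had no used site. Placed genes left out of this list include Pop4, Prmt6, Manea, Cd46, Nox4, Zfp939 and Efemp1. The share of neuronal genes was not counted, in the domains or in the middle tiles. The placed promoters have at least 8 CpGs by the rule of placement, so their CpG content is no result about the domains. Of these promoters 3 are shown as CpG-rich windows inside CpG-poor tiles, and the CpG content just around them was not measured. They were taken among protein-coding windows with at least 8 used sites, by their values. Car10, which encodes a carbonic anhydrase-related protein of the brain, had the window with the most used sites without a methylated read in any line. Tle1, a Groucho-type co-repressor, had the highest DNMT3B1 level. Cntn5 was the longest gene (1271 kb) with at least 8 used sites. The 250 bases before each start are given 5′ to 3′ on the gene's strand, as in RefSeq, with CpGs in capitals.
Car10: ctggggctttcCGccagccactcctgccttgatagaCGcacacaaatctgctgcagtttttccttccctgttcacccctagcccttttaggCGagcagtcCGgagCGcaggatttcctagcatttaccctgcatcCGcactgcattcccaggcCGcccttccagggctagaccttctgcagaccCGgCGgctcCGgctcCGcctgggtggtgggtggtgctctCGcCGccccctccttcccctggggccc
Tle1: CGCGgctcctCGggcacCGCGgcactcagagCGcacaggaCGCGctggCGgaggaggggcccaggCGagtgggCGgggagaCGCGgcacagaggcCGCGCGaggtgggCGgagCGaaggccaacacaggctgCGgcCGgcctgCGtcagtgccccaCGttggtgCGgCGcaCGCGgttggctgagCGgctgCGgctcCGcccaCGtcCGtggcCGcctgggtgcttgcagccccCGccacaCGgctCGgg
Cntn5: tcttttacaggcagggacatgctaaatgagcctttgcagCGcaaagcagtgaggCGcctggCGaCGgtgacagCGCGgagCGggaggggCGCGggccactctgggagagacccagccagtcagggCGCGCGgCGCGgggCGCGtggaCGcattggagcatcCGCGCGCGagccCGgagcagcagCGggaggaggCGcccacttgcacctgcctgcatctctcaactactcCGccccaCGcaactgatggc

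The window of Car10, with 22 CpGs of which 13 lie in the bases shown, lay at chr11:92959430-92959729 of mm9 on the plus strand. The whole window had 21 used CpG sites. No read was methylated there in 384 reads of the SETD2 knockout, 188 of DNMT3B1 and 342 of DNMT3A2, which allows levels of up to 0.781%, 1.60% and 0.877% (3 reads). Another placed window of Car10, at chr11:92960354-92960653, had 13 used sites. There 1 of 159 reads was methylated in the SETD2 knockout, 1 of 159 in DNMT3B1 and 0 of 154 in DNMT3A2. The window of Tle1 at chr4:71861878-71862177 on the minus strand had 6 methylated of 340 reads in the SETD2 knockout (1.76%, exact 95% binomial interval 0.650% to 3.80%, for counting error only), 5 of 236 in DNMT3B1 (2.12%, 0.691% to 4.87%) and 0 of 235 in DNMT3A2 (up to 1.28%). The window of Cntn5 at chr9:10904677-10904976 on the minus strand had 1 of 110 reads methylated in the SETD2 knockout, 0 of 62 in DNMT3B1 and 0 of 85 in DNMT3A2. Car10 and Tle1 were chosen by these values, which are therefore given as a description only.

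Over all placed promoters in the domains, the level was 0.943% in the SETD2 knockout (60 of 6362 reads, 0.720% to 1.21%), against 0.636% in the promoters of middle tiles. For DNMT3B1 it was 0.286% (12 of 4194, 0.148% to 0.499%) against 0.235%, and for DNMT3A2 0.507% (21 of 4144, 0.314% to 0.774%) against 0.456%. A single window, that of the noncoding RNA gene Gm28453 on chromosome 7, gave 29 of the 60 methylated knockout reads and 19 of the 21 with DNMT3A2. Without it, a setting added after the data were seen, the level was 0.504% in the SETD2 knockout (31 of 6149), 0.295% in DNMT3B1 (12 of 4069) and 0.0496% in DNMT3A2 (2 of 4029). No window was left out of the middle tiles in turn, so these values are not to be set against the middle levels above. The windows of Gm28453, Pop4, Kmt2c, 4831440E17Rik and Rasgrf2 were among those in tiles with a stretch of 50 kb or more without CpG sites. The promoter level without all such tiles was not tested. Counting overlapping windows separately, of the 19 windows with at least 8 used sites, 8 had no methylated read in the SETD2 knockout, 15 had none in DNMT3B1 and all 19 had none in DNMT3A2. The minimum of 8 sites left out each domain window that had a methylated DNMT3A2 read. These were Gm28453 (5 used sites, 19 of 115 reads), Cd46 (6 sites, 1 of 89) and Grik2 (5 sites, 1 of 34). In the middle tiles 615 of 1293 such windows had none in the SETD2 knockout (47.6%), 1055 in DNMT3B1 (81.6%) and 1043 in DNMT3A2 (80.7%). These counts depend on depth, and the windows had a median of 181 reads in the SETD2 knockout, 159 in DNMT3B1 and 129 in DNMT3A2 in the domains, against 269, 182 and 180 in the middle tiles. Over 554388 sites with 60 or more CpG sites within 500 bp on each side, the 3 lines had 0.463%, 0.153% and 0.210% in the same order. The part of such a library-wide level in the promoter values and window counts was not tested.

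Levels were compared at matched local density, that is at sites with 10 to 19 CpG sites within 500 bp on each side, the site itself included. A site was used with at least 5 reads in all 3 lines and at most 80 in the SETD2 knockout, 40 in DNMT3B1 and 45 in DNMT3A2. In the domains, 12865 of 141252 sites of this density (9.11%) met these limits, against 466896 of 1349745 (34.6%) in the middle tiles. The SETD2 knockout values, which list only sites with at least 10 reads, removed most: 16.4% of the domain sites had 5 or more knockout reads, against 31.9% for DNMT3B1 and 34.0% for DNMT3A2. Used sites in the domains had mean coverages of 15.9 reads in the SETD2 knockout, 10.6 in DNMT3B1 and 10.8 in DNMT3A2, against 17.9, 12.04 and 12.4 in the middle tiles. The domain values therefore describe the well-covered minority of sites, about 54.1 a tile against 983 in the middle tiles, and the part of this selection in the levels was not tested beyond the coverage settings given in the closing section.

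At this matched density all 3 lines carried less methylation in the CpG-poor domains than in the middle tiles, and DNMT3A2 differed most. In the SETD2 knockout 12938 of 205141 domain reads were methylated (6.31%, exact 95% binomial interval 6.20% to 6.41%), against 7.03% in the middle tiles. In the DNMT3B1 line 3796 of 136353 were methylated (2.78%, 2.70% to 2.87%), against 3.32%. In the DNMT3A2 line 8569 of 138854 were methylated (6.17%, 6.05% to 6.30%), against 8.93%. These intervals cover counting error only, since amplified copies of a molecule were not told apart.

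The domain level was 0.897 times the middle level in the SETD2 knockout (95% interval 0.862 to 0.933 from the spread between the 19 autosomes), 0.839 times in DNMT3B1 (0.792 to 0.888) and 0.691 times in DNMT3A2 (0.642 to 0.743). On the log2 scale these ratios were -0.16 ± 0.03, -0.25 ± 0.04 and -0.53 ± 0.05 (standard error over autosomes). The DNMT3A2 level in the domains was thus as low as that of the SETD2 knockout, although in the middle tiles it stood above it.

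The ratio between the lines differed accordingly. The DNMT3B1 level was 0.451 times the DNMT3A2 level in the domains, against 0.371 times in the middle tiles, a difference in log2 ratio of 0.28 (0.17 to 0.39). The SETD2 knockout level was 1.02 times the DNMT3A2 level in the domains, against 0.787 times in the middle tiles, a difference of 0.38 (0.28 to 0.47). The SETD2 knockout level was 2.27 times the DNMT3B1 level in the domains, against 2.12 times in the middle tiles, a difference of 0.10 (0.02 to 0.17). This last difference was small, and its interval included 0 or its sign turned under 12 of 23 other settings. With no maximum coverage, the DNMT3B1 over DNMT3A2 difference was -0.48 and that of the SETD2 knockout over DNMT3A2 -0.31. Leaving out 1 window of chromosome 2 as well, they were 0.30 and 0.38.

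The lower DNMT3A2 level held on each chromosome that could be compared. Among the 16 autosomes with at least 5 CpG-poor tiles, DNMT3A2 was lower in the domains than in the middle tiles of the same chromosome on 16, DNMT3B1 on 15 and the SETD2 knockout on 13. The domain level of single chromosomes ran from 5.71% to 8.07% in the SETD2 knockout (middle tiles 6.77% to 7.30%), from 2.19% to 4.32% in DNMT3B1 (3.13% to 3.49%) and from 4.63% to 7.91% in DNMT3A2 (8.56% to 9.41%). For DNMT3A2 the domain and middle ranges did not overlap. The DNMT3B1 over DNMT3A2 log2 ratio was higher in the domains by 0.27 ± 0.21 (mean ± SD, n = 16 chromosomes) and on 15 of them, chromosome 11 being the exception at -0.05. On chromosome 13 DNMT3B1 was higher in the domains (4.32% against 3.44%), and so was the SETD2 knockout (8.07% against 7.04%). There 122 of 192 methylated DNMT3B1 reads came from the tile from 92000001. Without this tile, a setting added after the data were seen, the domain levels of chromosome 13 were 6.42% (5.60% to 7.33%) in the SETD2 knockout, 3.52% (2.75% to 4.43%) in DNMT3B1 and 5.83% (4.85% to 6.94%) in DNMT3A2.

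**Figure D1:**
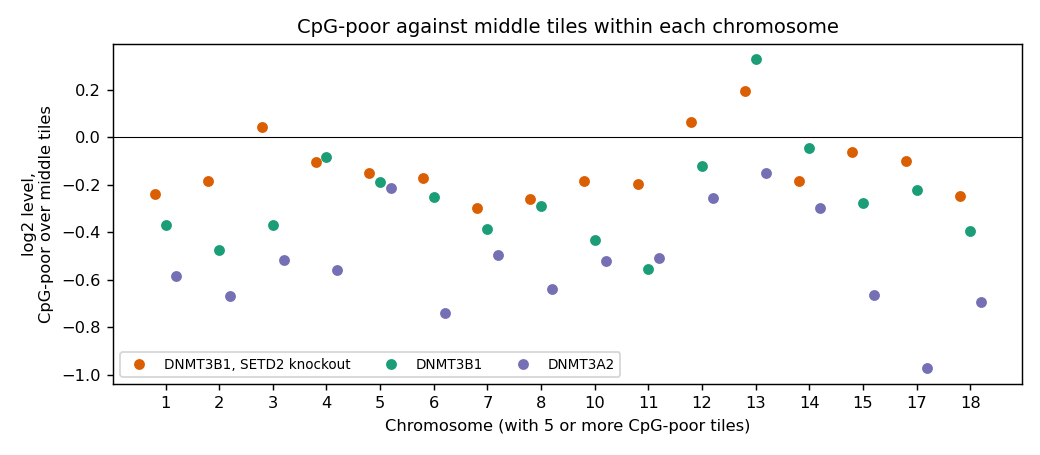
The log2 ratio of the level in CpG-poor tiles over that in middle tiles, at sites of 10 to 19 CpGs per kb, is plotted for each autosome with at least 5 CpG-poor tiles, with 1 point for each line and a line at 0 for equal levels. DNMT3A2 points lie below 0 on all 16 chromosomes, from -0.97 on chromosome 17 to -0.15 on chromosome 13, while 3 points of the SETD2 knockout and 1 of DNMT3B1 lie above 0.

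The domains were the low end of a graded series. Over the deciles of tiles from the fewest to the most CpG sites, the DNMT3A2 level at matched density was 6.17%, 6.53%, 7.30%, 8.25% and 8.78% in the first 5, reached 9.49% in decile 8 and was 9.09% in decile 10. The DNMT3B1 level was 2.78% in decile 1, 3.28% in decile 5 and 3.27% in decile 10. In the SETD2 knockout the levels of the same deciles were 6.31%, 7.04% and 6.76%. Decile 2, with 5385 or fewer sites a tile, had levels near those of the domains in all 3 lines (6.43%, 2.82% and 6.53% in the SETD2 knockout, DNMT3B1 and DNMT3A2), so no step separated the 238 tiles from the next ones.

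**Figure D2:**
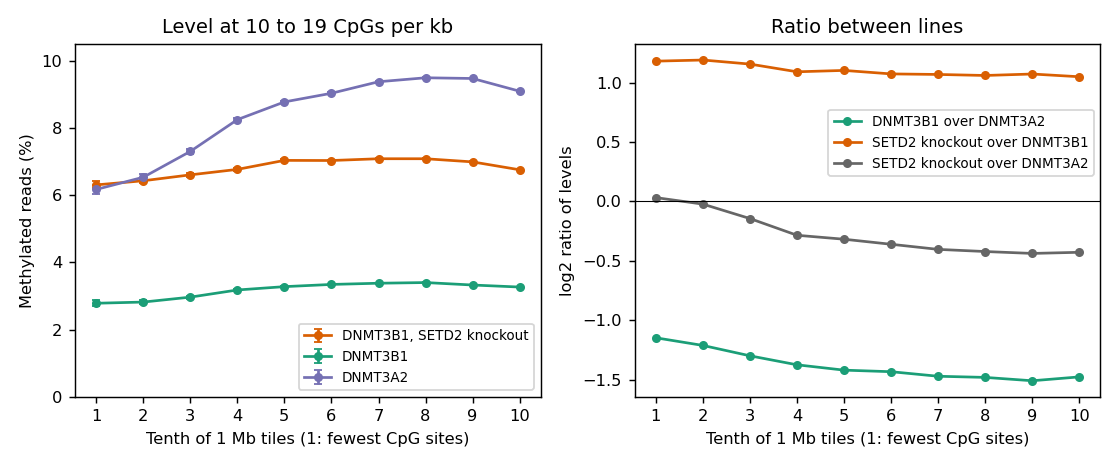
The left panel plots the pooled methylation level (percent of reads, exact 95% binomial intervals) of the 3 lines at sites of 10 to 19 CpGs per kb by decile of 1 Mb tiles, and the right panel the log2 ratio between lines. DNMT3A2 has 6.17% in decile 1 and 9.09% in decile 10, while the SETD2 knockout has 6.31% and 6.76% and DNMT3B1 2.78% and 3.27% in the same deciles.

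Most CpGs of the domains had fewer neighbours than 10 per kb, and at those sites the difference was larger. Densities inside a class were not matched, and their part in this larger difference was not tested. At 10 to 19 CpGs per kb the used sites had a mean density of 12.8 in the domains and 13.3 in the middle tiles. With each density of that class weighted alike, the log2 ratio was -0.17 in the SETD2 knockout, -0.22 in DNMT3B1 and -0.48 in DNMT3A2. Sites with 1 to 4 CpGs per kb made up 33.0% of all domain sites, against 9.98% in the middle tiles. There the level was 5.44% in the SETD2 knockout (middle tiles 6.81%), 2.14% in DNMT3B1 (2.92%) and 2.98% in DNMT3A2 (5.86%). DNMT3A2 at these isolated CpGs was 0.510 times the middle level, with a log2 ratio of -0.97 (-1.13 to -0.82), and DNMT3B1 over DNMT3A2 was higher in the domains by 0.52 (0.40 to 0.65). At 5 to 9 CpGs per kb the domain levels were 5.77%, 2.46% and 4.17% in the SETD2 knockout, DNMT3B1 and DNMT3A2, against 7.16%, 3.26% and 7.71%, and DNMT3A2 was 0.540 times the middle level. The SETD2 knockout over DNMT3B1 ratio was higher in the domains by 0.12 (0.07 to 0.18) at 1 to 4 CpGs per kb and by 0.10 (0.02 to 0.17) at 5 to 9. In denser classes its difference was 0.08 (-0.14 to 0.29) at 20 to 39, -0.66 (-1.34 to 0.02) at 40 to 59 and 1.20 (0.08 to 2.32) at 60 and more, the last on 12 methylated DNMT3B1 reads in the domains.

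At higher densities the domains did not have lower levels throughout. At 20 to 39 CpGs per kb, on 3001 sites, the SETD2 knockout had 5.30% in the domains against 4.77% (log2 ratio 0.15, 0.02 to 0.28), DNMT3B1 2.33% against 2.21% (0.08, -0.11 to 0.26) and DNMT3A2 5.14% against 6.16% (-0.26, -0.51 to -0.01). At 40 to 59 CpGs per kb, on 951 sites, the level was higher in the domains for the SETD2 knockout, at 1.34% against 0.938% (0.52, 0.11 to 0.92), and for DNMT3B1, at 0.702% against 0.310% (1.18, 0.49 to 1.86). For DNMT3A2 it was 1.16% against 0.622% (0.90, -0.16 to 1.96). At 60 and more, where CpG islands lie, 128 of 23603 reads were methylated in the SETD2 knockout (0.542%), 12 of 15359 in DNMT3B1 (0.0781%) and 21 of 15470 in DNMT3A2 (0.136%), and the intervals of all 3 domain over middle ratios included 0.

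**Figure D3:**
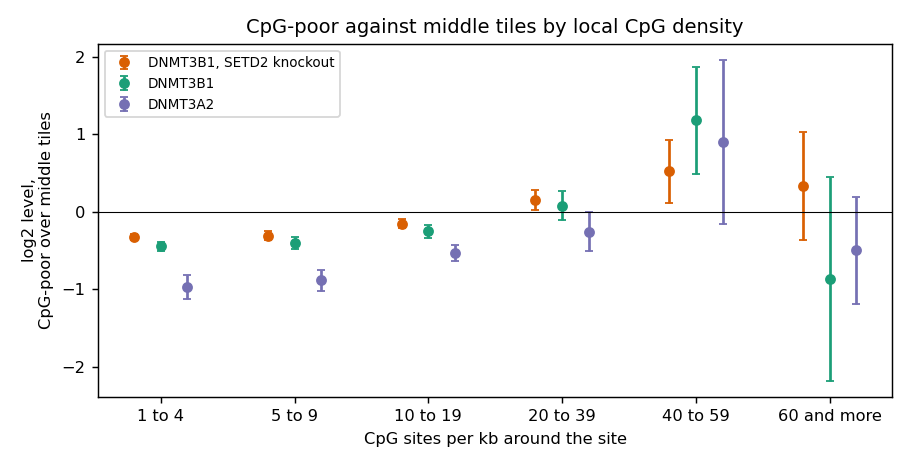
The log2 ratio of the level in CpG-poor over middle tiles is plotted for 6 classes of local CpG density and the 3 lines, with 95% intervals from the spread between autosomes. DNMT3A2 stands at -0.97 at 1 to 4 CpGs per kb and at -0.53 at 10 to 19, and the intervals widen above 40 CpGs per kb, where few domain sites were covered.

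Matching the wider surroundings too gave smaller differences. Used domain sites had a median of 104 CpG sites within 10 kb on each side, against 189 for used sites of middle tiles, so that matching within 500 bp left the wider surroundings unmatched. When middle sites were weighted to the domain mix of this wider count, a setting added after the data were seen, the log2 ratio of domain over middle level became -0.10 (-0.18 to -0.02) in the SETD2 knockout, -0.11 (-0.19 to -0.03) in DNMT3B1 and -0.23 (-0.34 to -0.12) in DNMT3A2. The DNMT3B1 over DNMT3A2 difference became 0.12 (0.04 to 0.20), and that of the SETD2 knockout over DNMT3A2 0.13 (0.02 to 0.25). That of the SETD2 knockout over DNMT3B1 became 0.01 (-0.07 to 0.10). With under 80 CpG sites in the 20 kb, DNMT3A2 had 5.20% in the domains and 5.29% in the middle tiles, which held only 509 such sites. With 200 or more it had 6.27% in the domains and 9.16% in the middle tiles, a log2 ratio of -0.55 (-0.87 to -0.22). Domain sites were few in this last class (654).

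**Figure D4:**
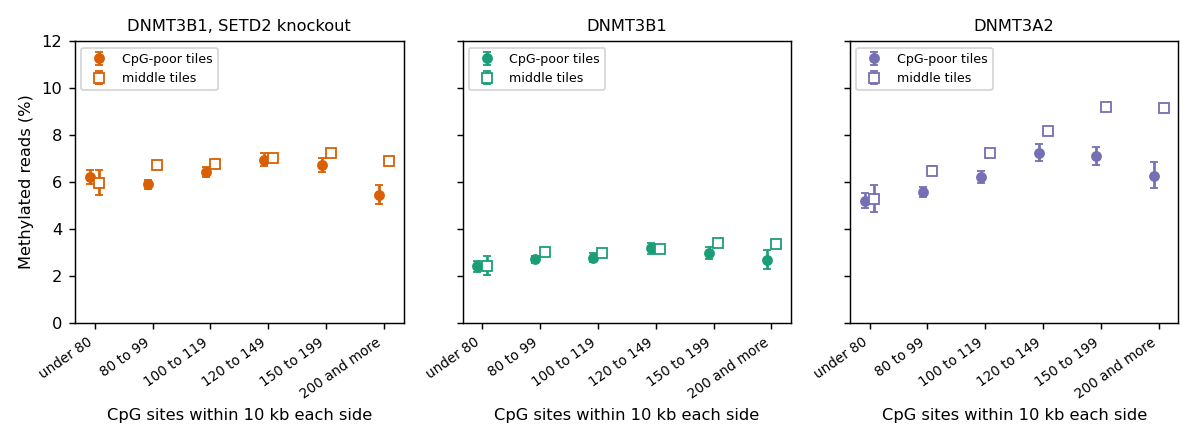
The methylation level (percent of reads, exact 95% binomial intervals) at sites of 10 to 19 CpGs per kb is plotted by the number of CpG sites within 10 kb on each side, for CpG-poor tiles (filled) and middle tiles (open), with 1 panel for each line. In DNMT3A2 both sets have low levels in sparse surroundings (5.20% and 5.29%) and part in denser ones (6.27% and 9.16% at 200 or more sites).

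The distance to the nearest CpG did not set the domains apart: its median was 24 bp at used domain sites and 25 bp at used middle sites. In pairs 2 to 4 bp apart DNMT3A2 had 7.08% in the domains against 10.2% in the middle tiles, and at 40 to 79 bp it had 5.65% against 8.09%. DNMT3B1 had 2.77% against 3.20% and 2.69% against 3.11% in the same classes, and the SETD2 knockout 6.49% against 6.62% and 5.77% against 6.83%. In the domains, as in the middle tiles, the close pairs had the higher DNMT3A2 level of these 2 classes.

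The lower DNMT3A2 level was seen in more sites without any methylated read and in fewer strongly methylated ones. Among sites of similar coverage (8 to 16 reads in DNMT3B1 and DNMT3A2, 10 to 20 in the SETD2 knockout), 69.1% of 3386 domain sites had no methylated DNMT3A2 read (67.5% to 70.7%), against 57.2% in the middle tiles. Sites with at least 50% of DNMT3A2 reads methylated made up 1.54% (1.15% to 2.01%), against 2.68%. For DNMT3B1 84.8% of domain sites had no methylated read, against 82.3%, and 0.797% (0.526% to 1.16%) reached 50%, against 0.745%. In the SETD2 knockout 67.5% had none, against 63.5%, and 1.92% (1.48% to 2.44%) reached 50%, against 1.78%. The share of strongly methylated sites was thus lower in the domains for DNMT3A2, and for both lines with DNMT3B1 its interval held the middle value.

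DNMT3A2 levels were lowest deep inside the domains and highest far outside them. Inside runs of CpG-poor tiles, at 500 kb or more from the edge, the level was 6.54% in the SETD2 knockout, 2.86% in DNMT3B1 and 5.53% in DNMT3A2. In the first 250 kb inside the edge it was 6.19%, 2.62% and 6.49%. Outside, at 0 to 500 kb from the edge, it was 6.88%, 3.13% and 7.92%, and at 500 to 1000 kb 6.82%, 3.26% and 8.84%. The SETD2 knockout level thus passed above that of DNMT3A2 deep inside the runs and lay under it outside. In the 42 tiles with a CpG-poor tile on both sides, which held 1366 used sites, the log2 ratio of domain over middle level was -0.73 (-0.94 to -0.53) for DNMT3A2, -0.24 (-0.49 to 0.02) for DNMT3B1 and -0.24 (-0.35 to -0.13) for the SETD2 knockout. Edges follow the grid of tiles and so mark the borders only to within the tile size.

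**Figure D5:**
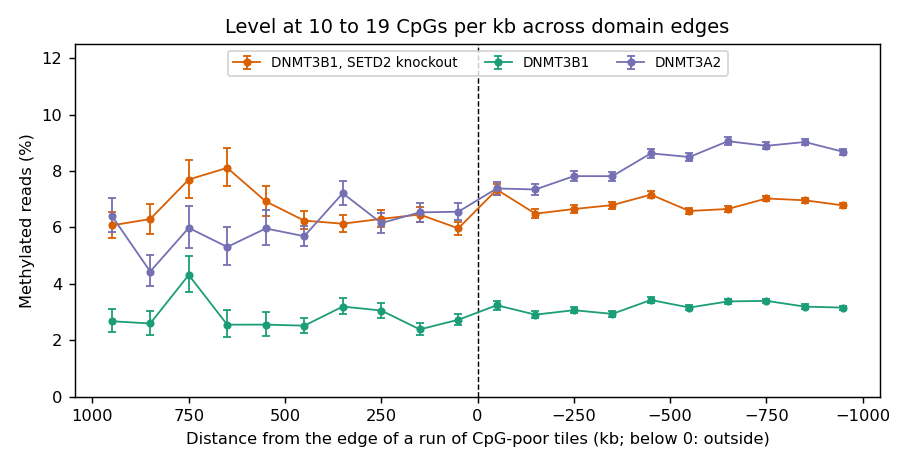
The methylation level (percent of reads, exact 95% binomial intervals) at sites of 10 to 19 CpGs per kb is plotted in 100 kb bins by distance from the edge of runs of CpG-poor tiles, with inside on the left (above 0) and outside on the right (below 0). DNMT3A2 has between 4.44% and 7.21% in the inside bins and between 7.35% and 9.06% in the outside bins.

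Levels of single domains covered a wide range. In the 85 of 238 CpG-poor tiles with at least 50 used sites, the DNMT3A2 level ran from 2.72% to 10.4% with a median of 6.04%, with an SD of 1.74 percentage points. For DNMT3B1 the range was 0.493% to 7.67% (median 2.78%, SD 1.36), and for the SETD2 knockout 2.82% to 14.9% (median 6.06%, SD 1.71). The SETD2 knockout had an SD of 0.745 points over the 470 middle tiles with as many sites, DNMT3B1 one of 0.469 and DNMT3A2 one of 1.20. If reads were independent, binomial noise alone would give the SETD2 knockout 0.695 in domain tiles (middle tiles 0.218), DNMT3B1 0.586 (0.187) and DNMT3A2 0.829 (0.293). The DNMT3A2 level was at most 0.8 times the median of all tiles in 60 of the 85, against 18.9% of all 2143 tiles with as many sites, and above the median by the same factor in 0, against 4.62%. The DNMT3B1 level lay below by this margin in 39 (all tiles 13.1%) and above in 17 (6.58%), and the SETD2 knockout level below in 24 (7.93%) and above in 5 (2.05%). The ratio of DNMT3B1 over DNMT3A2 was higher by this margin in 41 tiles (14.1%) and lower in 19 (6.53%). That of the SETD2 knockout over DNMT3A2 was higher in 50 (14.7%) and lower in 6 (2.05%). That of the SETD2 knockout over DNMT3B1 was higher in 26 (9.85%) and lower in 21 (7.19%), and the balance of these counts moved with the settings given in the closing section. For DNMT3B1, for the SETD2 knockout and for each ratio between lines, the domain tiles passed the margin more often than all tiles in both directions. They had a median of 25 methylated DNMT3B1 reads, against 335.5 in the middle tiles. The medians were 79 against 1090 in the SETD2 knockout and 47 against 934.5 in DNMT3A2. The part of counting error in these counts was not tested.

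Well-covered single domains were rare. Only 3 CpG-poor tiles had at least 200 used sites. The tile on chromosome 8 from 38000001 to 39000000 had 5.06% in the SETD2 knockout (210 of 4153 reads), 2.21% in DNMT3B1 (70 of 3165) and 6.49% in DNMT3A2 (194 of 2989). The tile on chromosome 5 from 25000001, which holds the start of Kmt2c, a histone H3 lysine 4 methyltransferase, had 6.34%, 2.60% and 9.02% in the same order. The tile on chromosome 13 from 92000001, which holds the start of Rasgrf2, a guanine nucleotide exchange factor, had 9.56%, 4.96% and 9.59%. These last 2 tiles were not domains of sparse CpGs throughout, since each contained a stretch without any CpG site, of 577 kb and 654 kb.

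Of the longest runs, that on chromosome 1 from 101000001 to 107000000, around Cntnap5b and Cdh20, had 7.36% in the SETD2 knockout, 3.37% in DNMT3B1 and 6.69% in DNMT3A2 (157 of 2348 reads, 5.71% to 7.77%). The run on chromosome 2 from 95000001 to 101000000 had 6.76%, 2.24% and 4.77% (86 of 1803, 3.83% to 5.86%). The 5-tile run on chromosome 1 from 109000001 to 114000000, around Cdh7, had 4.86%, 3.03% and 5.75% (84 of 1461, 4.61% to 7.07%). The 5-tile run on chromosome 14 from 107000001 to 112000000, around Slitrk1, had 5.74%, 3.59% and 7.22% (90 of 1247, 5.84% to 8.80%). In all 4 runs the DNMT3A2 level was below the 8.93% of the middle tiles. These levels rest on few reads and moved with coverage. With no maximum the run on chromosome 2 had 4.50% in the SETD2 knockout and 7.32% in DNMT3A2, and with at least 10 reads a site it had 0.685% in DNMT3B1 and 3.11% in DNMT3A2. With at least 10 reads the run on chromosome 1 from 109000001 had 2.87% in the SETD2 knockout and 5.97% in DNMT3B1. At the same minimum, DNMT3B1 had 2.01% in the run from 101000001 and the SETD2 knockout 3.06% in that on chromosome 14.

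Stretches without CpG sites and a window of extreme coverage entered the domains by the rule. In 11 of the 238 tiles a stretch of 50 kb or more held no CpG site, the longest being 910 kb on chromosome 8 from 57000001, against 19 of 475 middle tiles, where the longest was 50.5 kb. Without these 11 tiles the log2 ratio of domain over middle level was -0.17 in the SETD2 knockout, -0.27 in DNMT3B1 and -0.60 in DNMT3A2. Whether the stretches are unsequenced gaps of the build was not tested, as its sequence was not used here. The tile on chromosome 8 from 57000001 held 647 sites outside its 910 kb stretch, so its low count does not by itself show sparse CpGs. The run on chromosome 2 contained a 20 kb window whose 45 sites of this density held 96.9%, 95.5% and 95.8% of all reads of such sites in the domains in the SETD2 knockout, DNMT3B1 and DNMT3A2. The maximum coverage left 3 of these sites. With no maximum the DNMT3B1 over DNMT3A2 difference between domains and middle tiles was -0.48, and with no maximum but without this window it was 0.30 (0.06 to 0.53).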

How the data were processed

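Whole-genome bisulfite sequencing was measured in 3 lines, with groups taken from the sample titles. The authors deposited counts of all reads and of methylated reads for each CpG, both strands on 1 line. The DNMT3A2 and DNMT3B1 columns name the line and not the run, so which runs they hold is not known. The deposited SETD2 knockout values also give the fraction, which equalled methylated over all reads (within 1e-09) at each listed site. It lists 44.7% of the CpG sites, all with 10 or more reads. Its 2 files were identical and used once. Positions are in mm9, which the submitters' processing notes name. Neither aligner nor caller is given in the sources used here. Autosomal sites carried 199677682 reads in the SETD2 knockout, 185976582 in DNMT3B1 and 197486729 in DNMT3A2.

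Levels are methylated over all reads, pooled over sites. Ratios have 95% intervals from a ratio estimator linearized over autosomes, with 18 degrees of freedom. The estimator was tried on simulated tiles with the real read numbers, independent reads and all other tiles as the comparison. How well the intervals hold against the middle tiles, or where reads depend on each other, was not tested. No test between lines was possible with 1 library each. Tiles with fewer than 3 methylated reads in a line were set to 3 methylated reads when tiles past the margin were counted, for levels and for ratios. The domains and settings were chosen with earlier results of these data known. Tiles were named if they had 200 or more used sites and 1000 or more reads in each line, together with the longest runs and the tiles at the threshold. Genome sequence and gene models of mm9 were not used here, and promoters of chromosome 18 were not analysed here. The alternatives changed coverage, density, tile and weighting choices one at a time. Python 3.11.15, numpy 2.4.6, pandas 2.3.3 and scipy 1.17.1 were used.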

Additional observations from a re-analysis of the deposited data

Results flagged for a closer look

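The contrast of CpG-poor with middle tiles differed between lines by an interval of the difference itself that excluded 0. It was 0.28 (log2) for DNMT3B1 over DNMT3A2, with a higher ratio on 15 of 16 chromosomes, and 0.38 for the SETD2 knockout over DNMT3A2, with a higher ratio on 16 of 16. For the SETD2 knockout over DNMT3B1 it was 0.10, with a higher ratio on 13 of 16. Each rests on 1 library a line.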

How the results depend on the processing

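The lower DNMT3A2 level in the domains kept its direction and an interval excluding 0 under all 24 other settings (log2 ratio -0.73 to -0.23). Leaving out 1 autosome at a time gave -0.56 to -0.50 for DNMT3A2, -0.28 to -0.24 for DNMT3B1 and -0.17 to -0.14 for the SETD2 knockout. The ranges of the differences between lines were 0.25 to 0.30 for DNMT3B1 over DNMT3A2, 0.34 to 0.40 for the SETD2 knockout over DNMT3A2 and 0.078 to 0.11 for the SETD2 knockout over DNMT3B1. With no coverage maximum the first 2 turned to -0.48 and -0.31, and without the window on chromosome 2 they did not turn. With the 20 kb surroundings matched, a setting added after seeing the data, the first 2 fell to 0.12 and 0.13. The difference between the SETD2 knockout and DNMT3B1 was -0.00019 in interior tiles. Its interval included 0 at a minimum of 10 reads (0.14), with each density weighted alike (0.060), with density within 1000 bp (0.099), in the lowest twentieth of tiles (0.097), in 500 kb tiles (0.079), as a mean of tiles (0.086), without autosomes 6, 8 and 11 (0.090) and with an interval from tiles (0.096). Among settings added after seeing the data, it included 0 with the 20 kb surroundings matched (0.013), at matched coverage (0.0099) and with no maximum but without that window (0.086). The DNMT3B1 interval included 0 in interior tiles (-0.24), at matched coverage (-0.14) and with no maximum without the window (-0.16), as did that of the SETD2 knockout in the last (-0.078). The cause was not tested.

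Counts of CpG-poor tiles past the margin moved with the margin and the minimum coverage, and the share of all tiles tested that passed stands in brackets. At a margin of 1.5-fold, 85 CpG-poor tiles among 2143 were tested, with 1 higher (0.0933%) and 10 lower (2.01%) for the SETD2 knockout, 9 higher (1.31%) and 26 lower (6.21%) for DNMT3B1 and 0 higher (0.0933%) and 36 lower (9.57%) for DNMT3A2. For the ratios there were 31 higher (6.91%) and 16 lower (2.15%) for DNMT3B1 over DNMT3A2, 22 higher (4.34%) and 9 lower (2.38%) for the SETD2 knockout over DNMT3B1 and 31 higher (6.86%) and 4 lower (0.467%) for the SETD2 knockout over DNMT3A2. At a minimum of 10 reads, 17 CpG-poor tiles among 1789 were tested, with 3 higher (3.86%) and 5 lower (6.43%) for the SETD2 knockout, 3 higher (9.28%) and 11 lower (11.6%) for DNMT3B1 and 0 higher (5.65%) and 12 lower (13.1%) for DNMT3A2. For the ratios there were 9 higher (13.1%) and 5 lower (9.06%) for DNMT3B1 over DNMT3A2, 9 higher (10.2%) and 2 lower (8.78%) for the SETD2 knockout over DNMT3B1 and 10 higher (10.2%) and 1 lower (4.02%) for the SETD2 knockout over DNMT3A2. At a minimum of 1 read, 200 CpG-poor tiles among 2317 were tested, with 18 higher (1.81%) and 68 lower (8.55%) for the SETD2 knockout, 30 higher (6.34%) and 98 lower (14.6%) for DNMT3B1 and 3 higher (5.78%) and 146 lower (21.5%) for DNMT3A2. For the ratios there were 99 higher (15.4%) and 48 lower (6.91%) for DNMT3B1 over DNMT3A2, 76 higher (11%) and 42 lower (6.73%) for the SETD2 knockout over DNMT3B1 and 122 higher (17%) and 15 lower (1.81%) for the SETD2 knockout over DNMT3A2. With 200 sites a tile only 3 CpG-poor tiles among 1756 were left, and each count was 0, 1 or 2. No paired analysis was possible because each line was 1 library. Depth limits single tiles, which had a median of 25 methylated DNMT3B1 reads.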
